A study of Mus musculus with 6 samples.

Results

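The genes described here are 40 genes of cell proliferation in jejunal intestinal epithelial cells (IEC). Earlier results of these data were known. The 40 were chosen by symbol from the 19616 genes of the deposited count table without use of their values. Of these, 24 are replication genes, which license and start DNA replication, supply nucleotides or control the passage from G1 to S phase, and 16 are mitosis genes. The data are RNA-Seq read counts from IEC enriched with EDTA, with 1 library for each of 6 mice aged 3 months. The 3 control mice, named C1, C3 and C3-3, are labelled wildtype. The 3 Hdac1/2-deleted mice, named H1, H5 and H9, are labelled villin-Cre Hdac1-/-; Hdac2-/-, that is, floxed alleles of the histone deacetylase genes Hdac1 and Hdac2 were removed by a Cre recombinase under the villin promoter. This promoter is active in IEC, so that immune or stromal cells in the preparation keep both genes. The study's mice were of a mixed genetic background, and the labels give neither litter nor batch.

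In the small intestine, cells divide in the crypts, where stem cells give rise to rapidly cycling progenitors, and stop dividing as they move onto the villi. Before S phase, the proteins Cdc6 and Cdt1 load the Mcm2 to Mcm7 helicase onto replication origins, a step called licensing, and Cdc45 and the GINS complex then turn the helicase on. Cyclin-dependent kinases and the E2F transcription factors set the time at which the genes of S phase are expressed. Genes of mitosis are expressed later in the cycle, and the transcription factor FoxM1 is among their activators. HDAC1 and HDAC2 are the catalytic subunits of several corepressor complexes, among them complexes that E2F factors and the retinoblastoma proteins recruit to cell cycle genes.

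The libraries held 36111035 to 65902344 counted reads, fewest in H5. Expression is given as CPM, in which counts are scaled by library total and TMM factor. A floor of 3 counts lay at 0.0405 to 0.0790 CPM and covers counting error only. Of all genes, 15618 had enough counts to be tested with edgeR's quasi-likelihood test, and all 40 genes of proliferation were among them. A gene passed the test when its Benjamini-Hochberg adjusted p over all tested genes was at most 0.05. It was called increased or decreased when it also differed at least 2-fold, the limit in the study's methods. Hdac1 was expressed at 39.1, 34.5 and 48.9 CPM in C1, C3 and C3-3 and at 3.97, 2.53 and 4.81 CPM in H1, H5 and H9. Hdac2 was at 32.9, 23.6 and 26.5 CPM in the control mice and 26.6, 25.4 and 21.4 CPM in the Hdac1/2-deleted mice (adjusted p = 0.44). A count over the whole gene need not show the loss of part of it, and the sources used here do not give the floxed exons. These values therefore leave the deletion of Hdac2 unchecked, and the group name follows the labels. Markers of the labelled cell type were abundant: 10 epithelial genes, led by Vil1, Krt8 and Krt20, summed to 13913 to 15810 CPM in control and 11066 to 13599 CPM in Hdac1/2-deleted mice. These ranges did not overlap. Of the 10, 2 passed the test as lower and 1 as higher, beside 20.3% and 20.5% of all tested genes. Krt20 was among the lower (log2 fold change -0.57, adjusted p = 0.032).

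A pair of libraries stood apart for the genes of proliferation. Among the 3 control mice, C1 held the highest value for 38 of the 40 genes, where it did so for 38.0% of all tested genes. Among the 3 Hdac1/2-deleted mice, H9 held the lowest value for 37 of the 40 genes, against 29.5% of all tested genes. C3 was highest for 2 of the 40 (34.2% of all tested genes) and C3-3 for 0 (27.8%), and H1 was lowest for 2 (33.0%) and H5 for 1 (37.4%). The exceptions were Cdt1 and E2f2, which were highest in C3 and lowest in H1, and Cdk2, which was lowest in H5. Results below are therefore also given without C1 and without H9 where a call differs. These 2 mice were picked from the values of the same genes. Leaving out the highest control or the lowest Hdac1/2-deleted mouse raises a log2 fold change by construction. The median over the 40 genes was 0.34 with all mice, 0.58 without C1 and 0.57 without H9. Passes gained in these 2 fits are thus no independent support.

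In Hdac1/2-deleted IEC, 7 of the 40 genes passed the test and were higher, which is 17.5%, while 20.5% of all tested genes were higher. These were the helicase genes Mcm2, Mcm6 and Gins2, the nucleotide synthesis gene Rrm2, the cell cycle regulators Cdk4 and E2f2, and the mitotic transcription factor gene Foxm1. None of the 40 was lower by edgeR, against 20.3% of all tested genes. At an unadjusted p under 0.05, 9 of the 40 were higher, beside 24.7% of all tested genes, and 1, Tk1, was lower, beside 24.8%. DESeq2 passed 9 higher and 1 lower, Tk1, where it passed 22.2% of all genes as higher and 21.4% as lower. Of the 7, the 4 genes E2f2, Rrm2, Gins2 and Mcm2 were called increased, beside 12.4% of all tested genes, and 0 of the 40 were called decreased, beside 12.7%. The log2 fold change was above 0 for 31 of the 40, beside 49.6% of all tested genes, and its median was 0.34 beside -0.0081 over all tested genes. The scaling bears on these shares: with library totals alone and no TMM factors, 25.8% of all tested genes were higher and 14.7% lower, the median log2 fold change of all genes was 0.18 and that of the 40 genes 0.52, and 8 of the 40 were higher, the 7 and Plk1.

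Replication and mitosis genes are described apart below. Of the 24 replication genes, 6 passed the test and were higher, or 25%, with a median log2 fold change of 0.47. Of the 16 mitosis genes, 1 was higher, or 6.25%, with a median of 0.30. None of either list was lower by edgeR. These shares, and the counts of the smaller lists below, stand beside 20.5% of all tested genes higher and 20.3% lower. No test of a difference between replication and mitosis genes was made. The groups of mice did not overlap for 6 of the 24 replication genes, all of them higher in Hdac1/2-deleted mice, and overlapped for all 16 mitosis genes, where 26.7% of all tested genes were higher and 26.6% lower without overlap.

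**Figure D1:**
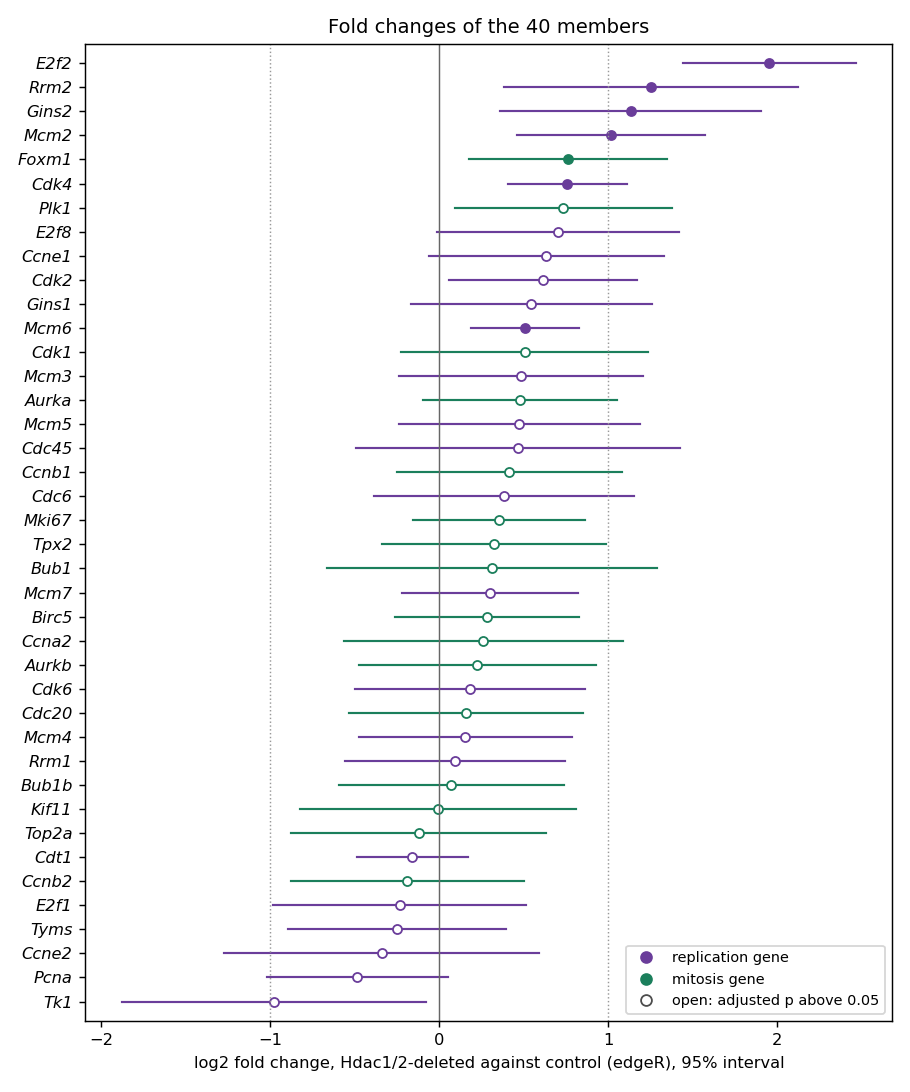
Log2 fold change of each of the 40 genes, Hdac1/2-deleted against control IEC (x axis, log2 scale), with its 95% interval from edgeR. Purple stands for replication and green for mitosis genes, filled points passed an adjusted p of 0.05, dotted lines mark 2-fold, and the 7 filled points all lie to the right of 0, from Mcm6 at 0.51 to E2f2 at 1.95.

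The promoters of the genes that passed are shown because replication and mitosis genes are known to differ in the DNA elements found there. RefSeq promoter windows of build GRCm38.p6, running from 250 bases before to 50 bases after a transcription start, were at hand for 32 of the 40 genes, but not for Gins2 and Foxm1. They were searched on both strands for the E2F motif (TTTCCCGC, TTTGGCGC, TTTCGCGC or TTTGCCGC), the cell cycle homology region or CHR motif (TTTGAA), bound by MuvB complexes, and the CCAAT box (CCAAT), bound by NF-Y. None of these motifs contains another, though matches can overlap. A gene is counted below if any of its windows held a match, whereas the shares beside the counts are of single windows. The 20 replication genes had 22 windows and the 12 mitosis genes had 12. The E2F motif stood in the windows of 8 of 20 replication genes, namely Cdc6, Cdk2, Cdt1, E2f2, Mcm3, Mcm5, Mcm6 and Mcm7, and of 1 of 12 mitosis genes, Cdk1, beside 2.26% of all 32851 windows. The CHR motif stood in those of 4 of 20 replication genes, Cdc45, E2f2, E2f8 and Mcm2, and of 9 of 12 mitosis genes, Aurka, Bub1b, Ccnb2, Cdc20, Cdk1, Kif11, Mki67, Plk1 and Top2a, beside 17.9% of all windows. The CCAAT box stood in those of 12 of 20 replication and 11 of 12 mitosis genes, beside 37.4% of all windows. A match describes the letters and is no evidence of binding. The 250 bases before the start are printed below for the 5 genes that passed and have a window, and for Cdk1, the mitosis gene that holds all 3 motifs, 5′ to 3′ on the gene's strand with motif letters in capitals.
Mcm2 (chr6:88898781-88899030, minus strand): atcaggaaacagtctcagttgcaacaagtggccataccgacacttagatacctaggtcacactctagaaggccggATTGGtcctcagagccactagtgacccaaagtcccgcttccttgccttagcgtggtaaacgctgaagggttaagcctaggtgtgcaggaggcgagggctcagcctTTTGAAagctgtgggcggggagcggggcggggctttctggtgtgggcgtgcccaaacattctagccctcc
Mcm6 (chr1:128359706-128359955, minus strand): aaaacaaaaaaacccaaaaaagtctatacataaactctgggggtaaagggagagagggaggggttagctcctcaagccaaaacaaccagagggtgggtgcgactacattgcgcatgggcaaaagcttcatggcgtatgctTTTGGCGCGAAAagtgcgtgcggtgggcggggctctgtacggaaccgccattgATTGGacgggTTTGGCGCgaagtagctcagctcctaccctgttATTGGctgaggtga
Rrm2 (chr12:24708004-24708253, plus strand): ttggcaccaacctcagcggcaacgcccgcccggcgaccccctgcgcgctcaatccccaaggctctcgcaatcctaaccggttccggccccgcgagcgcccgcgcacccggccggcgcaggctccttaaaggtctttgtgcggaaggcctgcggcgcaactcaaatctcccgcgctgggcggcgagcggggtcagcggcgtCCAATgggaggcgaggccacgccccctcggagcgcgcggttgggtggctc
Cdk4 (chr10:127063285-127063534, plus strand): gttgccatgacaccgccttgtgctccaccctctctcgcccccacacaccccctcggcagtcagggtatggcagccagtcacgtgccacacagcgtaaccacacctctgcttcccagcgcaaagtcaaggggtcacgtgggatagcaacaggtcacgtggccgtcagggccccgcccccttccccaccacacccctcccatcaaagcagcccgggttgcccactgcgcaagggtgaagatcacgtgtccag
E2f2 (chr4:136172024-136172273, plus strand): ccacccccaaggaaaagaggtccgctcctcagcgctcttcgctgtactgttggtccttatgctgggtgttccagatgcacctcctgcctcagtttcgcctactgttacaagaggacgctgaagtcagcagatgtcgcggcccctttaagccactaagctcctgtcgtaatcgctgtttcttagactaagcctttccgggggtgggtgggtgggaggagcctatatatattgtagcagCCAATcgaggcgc
Cdk1 (chr10:69352913-69353162, minus strand): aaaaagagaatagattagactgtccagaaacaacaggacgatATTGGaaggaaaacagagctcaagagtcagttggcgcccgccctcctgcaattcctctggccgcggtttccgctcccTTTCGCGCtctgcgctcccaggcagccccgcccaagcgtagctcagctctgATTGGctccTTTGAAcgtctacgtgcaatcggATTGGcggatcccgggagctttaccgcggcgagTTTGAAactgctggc

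In these stretches Mcm6 has E2F motifs in 3 places, the first 2 of them overlapping on opposite strands, and 2 CCAAT boxes. Mcm2 has a CHR motif and a CCAAT box, Rrm2 has a CCAAT box, and the Cdk4 window holds none of the motifs. The E2F motif of E2f2 begins 40 bases after the start and so lies outside the printed part, which holds a CCAAT box, and its CHR motif stands in the window of another RefSeq start. Cdk1 has 1 E2F motif, 2 CHR motifs and 3 CCAAT boxes.

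Of the 11 genes that license and activate the replicative helicase, Mcm2, Mcm6 and Gins2 were higher in Hdac1/2-deleted IEC and 8 did not pass. The 3 that were higher are 27.3% of the 11, beside 20.5% of all tested genes. The median log2 fold change of the 11 was 0.47, and 10 were above 0. Mcm2 (ENSMUSG00000002870, chromosome 6 from 88883474 to 88898780 of GRCm38), a subunit of the helicase, was expressed at 29.9, 16.2 and 20.3 CPM in C1, C3 and C3-3 and at 46.4, 52.9 and 35.3 CPM in H1, H5 and H9. The 3 Hdac1/2-deleted mice were all above the 3 control mice. The means were 22.1 ± 7.07 and 44.9 ± 8.89 CPM (SD, n = 3 mice), a log2 fold change of 1.02 ± 0.25 (SE, adjusted p = 0.010). Mcm6 (ENSMUSG00000026355, chromosome 1 from 128331590 to 128359664), another helicase subunit, was at 61.1, 47.5 and 52 CPM in the control mice and 82.3, 75.5 and 70.6 CPM in the Hdac1/2-deleted mice. Its groups did not overlap either, and its log2 fold change of 0.51 ± 0.14 (SE, adjusted p = 0.019) was the smallest of the 7 that passed. Mcm2 passed with any 1 mouse left out, whereas Mcm6 did not pass without C3 (adjusted p = 0.060), C3-3 (0.064) or H1 (0.059). The log2 fold change of Mcm6 ran from 0.43 to 0.62 over the 6 fits without 1 mouse.

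Gins2 (ENSMUSG00000031821, chromosome 8 from 120578633 to 120589304), a subunit of the GINS complex that activates the helicase, was at 5.06, 3.42 and 4.55 CPM in the control mice and 13.7, 9.56 and 5.35 CPM in the Hdac1/2-deleted mice. The mice did not overlap between groups, but H9, at 5.35 CPM, was close to C1, at 5.06 CPM. Its log2 fold change was 1.13 ± 0.34 (SE, adjusted p = 0.026). It did not pass without C3 (adjusted p = 0.077), C3-3 (0.060), H1 (0.10) or H5 (0.068). Over the 6 fits without 1 mouse its log2 fold change ran from 0.78 to 1.43. Exons of Gins2 share 2758 bases with Gse1 on the opposite strand, and the sources used here do not say whether reads were counted by strand. Gse1 itself had a log2 fold change of -0.16 (adjusted p = 0.40). The partner gene Gins1 was at 3.11, 2.27 and 2.13 CPM in the control mice and 4.52, 4.0 and 2.44 CPM in the Hdac1/2-deleted mice, and did not pass (log2 fold change 0.54, adjusted p = 0.20).

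The other subunits of the helicase did not pass the test, so that Mcm2 and Mcm6 were higher among 6 subunits measured. Log2 fold changes were 0.48 for Mcm3 (95% interval -0.24 to 1.21), 0.47 for Mcm5 (-0.24 to 1.19), 0.30 for Mcm7 (-0.22 to 0.82) and 0.15 for Mcm4 (-0.48 to 0.79). These intervals all include 0, and those of Mcm3 and Mcm5 also include the value of Mcm2. Differences between the subunits were not tested. Mcm3 shows the pattern of most of these genes, at 30.4, 15 and 19.1 CPM in C1, C3 and C3-3 and 32.6, 38.1 and 19.6 CPM in H1, H5 and H9. C1 was near H1, and H9 was near C3-3. Without H9, Mcm5 passed at a log2 fold change of 0.74 (adjusted p = 0.049). Mcm7 shares 321 exon bases with Ap4m1 on the opposite strand, which was lower (log2 fold change -0.78, adjusted p = 0.0080). Cdc45 shares 209 exon bases with Ufd1.

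Of the loading factors, Cdc6 was at 4.88, 3.94 and 3.29 CPM in the control mice and 5.71, 7.16 and 2.97 CPM in the Hdac1/2-deleted mice, with a log2 fold change of 0.38 (95% interval -0.39 to 1.15, adjusted p = 0.40). Cdt1, the loading factor that is held back by geminin and degraded in S phase, was at 33, 35 and 29.6 CPM in the control mice and 27.1, 32.7 and 27.6 CPM in the Hdac1/2-deleted mice. Its log2 fold change was -0.16 with a 95% interval of -0.49 to 0.17 (adjusted p = 0.41), and C1 and H9 were not at the ends of its groups. Cdc45, which joins the helicase with GINS, had a log2 fold change of 0.46 and an interval of -0.49 to 1.42.

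**Figure D2:**
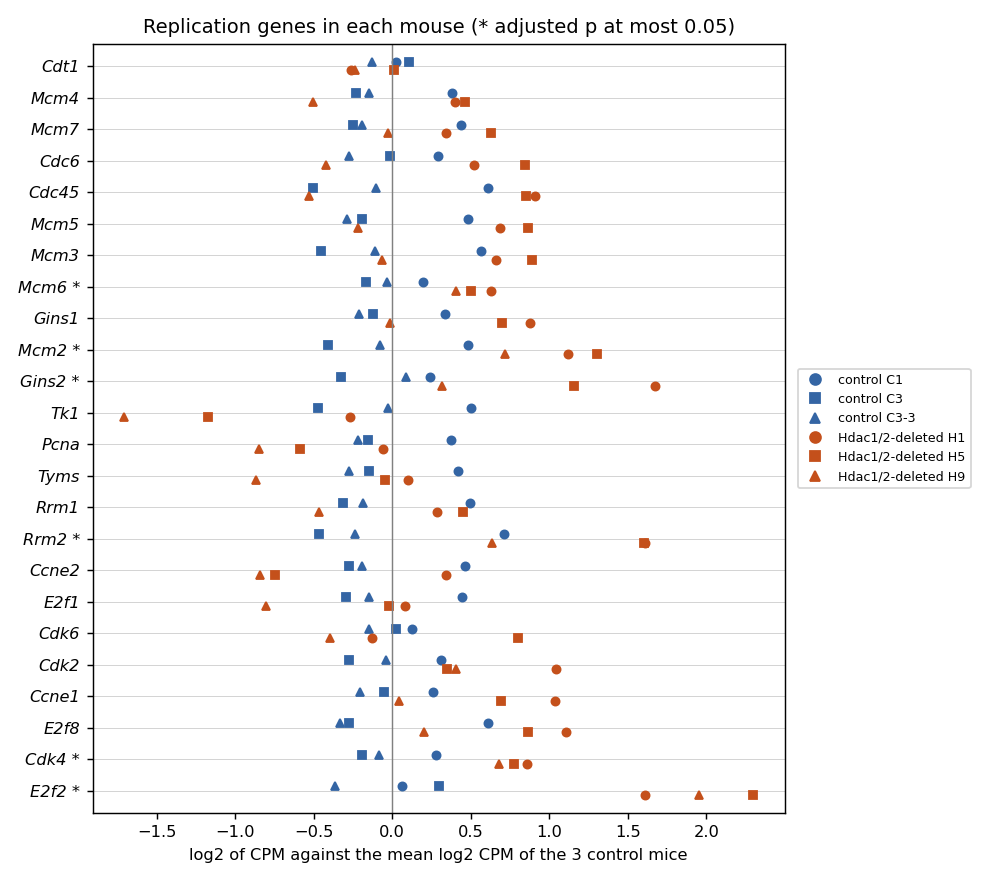
Expression of the 24 replication genes in each mouse (x axis, log2 of CPM relative to the mean log2 CPM of the 3 control mice). Blue marks control and orange Hdac1/2-deleted mice with a shape for each mouse, and the Hdac1/2-deleted points lie right of every control point for Mcm2, Mcm6, Gins2, Cdk4, Cdk2 and E2f2.

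The 5 genes of the replication clamp and the nucleotide supply did not share a direction. Rrm2 was higher in Hdac1/2-deleted IEC, 4 genes did not pass, and 3 of the 5 had log2 fold changes below 0. The 1 that was higher is 20% of the 5, beside 20.5% of all tested genes. Rrm2 (ENSMUSG00000020649, chromosome 12 from 24708241 to 24714146), the regulatory subunit of ribonucleotide reductase, which makes deoxyribonucleotides and whose level follows S phase, was at 17.8, 7.85 and 9.2 CPM in the control mice. It was at 33.2, 33 and 16.9 CPM in the Hdac1/2-deleted mice, and H9 lay below C1. The difference on the log2 scale was 1.25 ± 0.37 (SE, adjusted p = 0.030). Rrm2 did not pass without C3 (adjusted p = 0.080), C3-3 (0.088), H1 (0.093) or H5 (0.096). Over the 6 fits without 1 mouse its log2 fold change ran from 1.04 to 1.71. Rrm1, the catalytic subunit of the same enzyme, was at 41.1, 23.5 and 25.6 CPM in the control mice and 35.4, 39.7 and 21.1 CPM in the Hdac1/2-deleted mice, with a log2 fold change of 0.094 (95% interval -0.56 to 0.75). A difference between the subunits was not tested.

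Tk1, thymidine kinase of the thymidine salvage pathway, had the lowest log2 fold change of the 40 genes. It was at 25.9, 13.2 and 18 CPM in C1, C3 and C3-3 and at 15.2, 8.13 and 5.61 CPM in H1, H5 and H9. H5 and H9 were below all control mice, whereas H1 lay between C3 and C3-3. With a log2 fold change of -0.98 (95% interval -1.88 to -0.077), Tk1 missed the threshold at an adjusted p of 0.079. It passed with DESeq2 (log2 fold change -0.97, adjusted p = 0.022) and by edgeR without H1 (-1.47, adjusted p = 0.013). Over the 6 fits that each leave out 1 mouse, its adjusted p ranged from 0.013 to 0.22. Tk1 shares 83 exon bases with Afmid on the opposite strand, which was lower (log2 fold change -0.78, adjusted p = 0.048).

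Pcna, the sliding clamp that holds the DNA polymerases, was at 66.9, 46.4 and 44.4 CPM in the control mice and 49.5, 34.4 and 28.7 CPM in the Hdac1/2-deleted mice. C1 was the highest of all 6, H1 lay among the control mice, and H5 and H9 were below them. The log2 fold change of -0.49 (95% interval -1.02 to 0.049, adjusted p = 0.13) did not pass, and without H1 it was -0.73 (adjusted p = 0.036). Tyms, which makes thymidylate, was at 19.7, 13.3 and 12.2 CPM in the control mice and 15.7, 14.2 and 8.06 CPM in the Hdac1/2-deleted mice, with a log2 fold change of -0.25 (95% interval -0.89 to 0.40). H9 was the lowest of the 6 mice for each of these 5 genes except Rrm2.

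Among the 8 genes that control entry into S phase, Cdk4 and E2f2 were higher in Hdac1/2-deleted IEC and 6 did not pass. These 2 are 25% of the 8, beside 20.5% of all tested genes. E2f2 (ENSMUSG00000018983, chromosome 4 from 136172394 to 136196057), which codes for an E2F factor counted among the activators, had the largest change of the 40 genes. It was at 44, 51.7 and 32.7 CPM in C1, C3 and C3-3 and at 128, 207 and 163 CPM in H1, H5 and H9. Every Hdac1/2-deleted mouse was above every control mouse, and C1 and H9, which stood apart for most genes of proliferation, lay between the other mice of their groups. Mean expression was 42.8 ± 9.57 CPM in control and 166 ± 39.4 CPM in Hdac1/2-deleted IEC (SD, n = 3), a 3.87-fold difference (log2 1.95 ± 0.23, SE, adjusted p = 0.00025). Leaving out each mouse in turn gave log2 fold changes of 1.77 to 2.12.

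Cdk4 (ENSMUSG00000006728, chromosome 10 from 127063534 to 127067920), the kinase that acts with D cyclins in G1, was at 78.7, 56.6 and 61 CPM in the control mice and 118, 111 and 104 CPM in the Hdac1/2-deleted mice. The groups did not overlap, and the spread between the Hdac1/2-deleted mice was small beside the difference. The log2 fold change was 0.76 ± 0.16 (SE, adjusted p = 0.0044) and ran from 0.67 to 0.92 over the 6 fits without 1 mouse. Cdk4 shares 641 exon bases with Tspan31 on the opposite strand, which had a log2 fold change of 0.46 (adjusted p = 0.053). Cdk6, the other kinase of D cyclins, was at 11.4, 10.6 and 9.43 CPM in the control mice and 9.54, 18.2 and 7.92 CPM in the Hdac1/2-deleted mice. H5 alone was above the control mice, and the log2 fold change was 0.18 (95% interval -0.50 to 0.86).

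Cdk2, the partner of the E cyclins, was at 11.8, 7.87 and 9.26 CPM in the control mice and 19.6, 12.1 and 12.6 CPM in the Hdac1/2-deleted mice. The groups did not overlap, but H5 lay just above C1, and the log2 fold change of 0.62 had an adjusted p of 0.074. It passed with DESeq2 (adjusted p = 0.040) and by edgeR without C1 (adjusted p = 0.041). Fold changes on the log2 scale were 0.63 for Ccne1 (95% interval -0.064 to 1.33) and -0.34 for Ccne2 (-1.27 to 0.59), the genes of cyclins E1 and E2. Ccne2 was the least expressed of the 40, with as few as 37 counts in a mouse, and shares 609 exon bases with Ints8. E2f1, another activator, was at 4.5, 2.7 and 2.99 CPM in the control mice and 3.51, 3.26 and 1.9 CPM in the Hdac1/2-deleted mice (log2 fold change -0.23, 95% interval -0.98 to 0.52). E2f8, a repressor of the family that is expressed in S phase, was at 23.8, 12.9 and 12.4 CPM in the control mice and 33.6, 28.4 and 18 CPM in the Hdac1/2-deleted mice. Its log2 fold change of 0.70 missed the threshold (adjusted p = 0.11) and passed without C1 (1.09, adjusted p = 0.012) and without H9 (0.93, adjusted p = 0.046). E2f8 shares 610 exon bases with Gm2788 on the opposite strand, which had a log2 fold change of -0.89 (adjusted p = 0.092).

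The 7 genes of mitotic entry held the 1 mitosis gene that passed, which is 14.3% of the 7 beside 20.5% of all tested genes higher. Foxm1 (ENSMUSG00000001517, chromosome 6 from 128362967 to 128376146), the transcription factor of G2 and mitosis genes, was at 16.5, 11.6 and 12.1 CPM in C1, C3 and C3-3 and 26.5, 27 and 14.6 CPM in H1, H5 and H9. H1 and H5 were above all control mice and H9 was below C1, so the groups overlapped. Its log2 fold change was 0.76 ± 0.26 (SE, adjusted p = 0.042). It did not pass without C3 (adjusted p = 0.12), C3-3 (0.12), H1 (0.13) or H5 (0.14). Its exons share 144 bases with Tex52 on the same strand. Plk1, the kinase that drives mitotic entry and spindle assembly, was at 27.4, 18.6 and 21.2 CPM in the control mice and 37.6, 51.2 and 23.2 CPM in the Hdac1/2-deleted mice. Its log2 fold change of 0.74 had an adjusted p of 0.066, and it passed with DESeq2 (adjusted p = 0.030) and without H9 (adjusted p = 0.011).

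Cdk1, the mitotic kinase, was at 28.9, 14.1 and 18 CPM in the control mice and 36.4, 31.4 and 18.7 CPM in the Hdac1/2-deleted mice. H1 and H5 were above C1, and H9 was near C3-3. The log2 fold change of 0.51 (95% interval -0.23 to 1.24) did not pass, except without C1 (0.86, adjusted p = 0.045). The cyclins that bind it gave 0.26 for Ccna2 (95% interval -0.57 to 1.09), 0.42 for Ccnb1 (-0.25 to 1.08) and -0.19 for Ccnb2 (-0.88 to 0.50). None of the cyclins passed, and each interval includes 0. Ccna2 shares 510 exon bases with Exosc9 on the opposite strand, which was higher (log2 fold change 0.48, adjusted p = 0.025). Aurka, the kinase of centrosomes and spindle poles, had a log2 fold change of 0.48 (95% interval -0.096 to 1.05).

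None of the 9 genes of the spindle, the spindle checkpoint and mitotic chromosomes passed the test in either direction, and at an unadjusted p under 0.05 there were also 0. Their log2 fold changes ran from -0.12 for Top2a to 0.35 for Mki67, with a median of 0.23. Mki67, the Ki-67 antigen used as a stain for cycling cells, was at 110.5, 69.6 and 85.2 CPM in C1, C3 and C3-3 and 122, 134 and 82.3 CPM in H1, H5 and H9. The groups overlapped, with C1 above H9, and the 95% interval of its log2 fold change, -0.16 to 0.86, includes 0. Top2a, the topoisomerase that untangles replicated DNA, was at 104, 50.1 and 65.1 CPM in the control mice and 82.2, 76.1 and 43 CPM in the Hdac1/2-deleted mice. C1 was the highest of the 6 and H9 the lowest. The interval of its log2 fold change was -0.88 to 0.63.

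The rest of these genes behaved alike in where the mice stood. On the log2 scale the fold change was 0.23 for Aurkb and 0.28 for Birc5, subunits of the chromosomal passenger complex. It was 0.31 for Bub1 and 0.070 for Bub1b, kinases of the spindle checkpoint, and 0.16 for Cdc20, the activator of the anaphase-promoting complex that this checkpoint holds back. It was -0.0092 for Kif11, the motor that separates spindle poles, and 0.32 for Tpx2, which activates Aurora A on the spindle. Their standard errors ran from 0.24 for Birc5 to 0.43 for Bub1. C1 was the highest control mouse and H9 the lowest Hdac1/2-deleted mouse for all 16 mitosis genes.

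**Figure D3:**
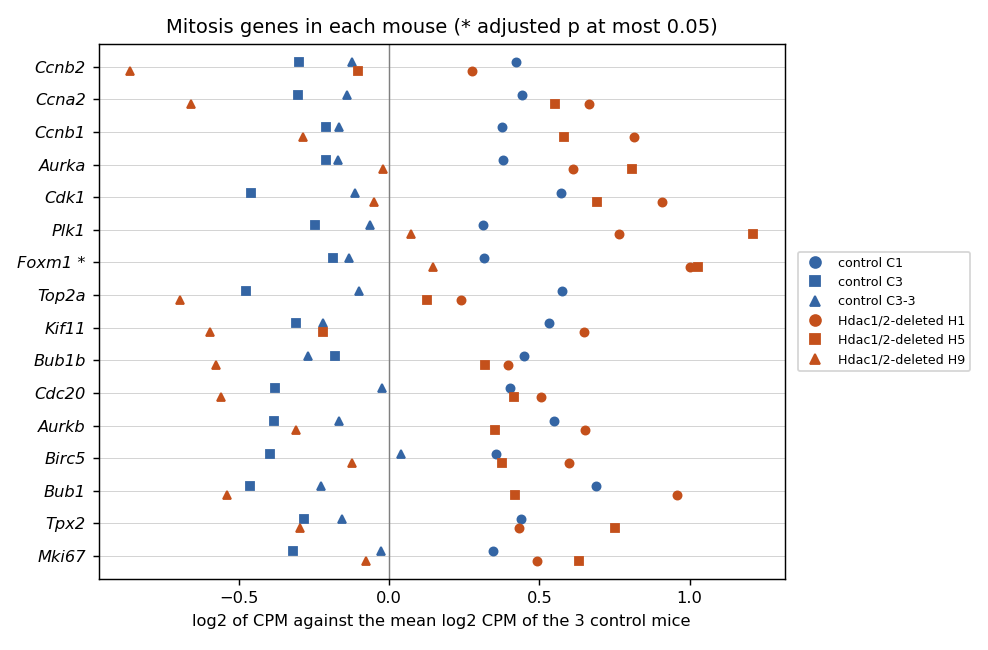
Expression of the 16 mitosis genes in each mouse (x axis, log2 of CPM relative to the mean log2 CPM of the 3 control mice), with blue for control and orange for Hdac1/2-deleted mice and a shape for each mouse. C1 is the rightmost control point and H9 the leftmost Hdac1/2-deleted point in all 16 rows, and the colours overlap in each.

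Compared per kilobase of exon, Pcna and Cdk4 were the most abundant of the 40 in control IEC, at 21.9 ± 5.19 and 20.1 ± 3.6 CPM per kb (SD, n = 3), levels that do not differ beyond their spread. Cdc20 followed at 12.9 ± 3.52 and Ccnb2 at 11.6 ± 3.16 CPM per kb, again within their spread. In Hdac1/2-deleted IEC, Cdk4 and E2f2 were the most abundant, at 34.1 ± 2.12 and 34 ± 8.07 CPM per kb, and Plk1 came next at 17 ± 6.36. E2f2 had been at 8.77 ± 1.96 CPM per kb in control IEC. Ccne2 was the least abundant in both groups, at 0.48 ± 0.142 and 0.377 ± 0.186 CPM per kb.

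The differences between mice of a group were as large as many of the differences between groups. Relative to each gene's mean over the control mice, the median of the 40 genes on the log2 scale was 0.42 in C1, -0.28 in C3 and -0.15 in C3-3. It was 0.64 in H1, 0.60 in H5 and -0.26 in H9. H9 was thus at the level of C3 and C3-3, and C1 was nearer to H1 and H5. The highest control mouse exceeded the lowest by a median of 1.65-fold over the 40 genes and 1.41-fold over all tested genes, and the Hdac1/2-deleted mice by 1.95-fold and 1.43-fold. Without C1, 10 of the 40 genes were higher, the 7 above with Cdk1, Cdk2 and E2f8, where 19.6% of all genes tested in that fit were higher. Without H9, 10 were higher, the 7 with Mcm5, E2f8 and Plk1, beside 17.2% of all genes. Without C3, without C3-3 or without H1, 3 were higher, Cdk4, E2f2 and Mcm2, beside 17.8%, 16.7% and 17.4% of all genes, and without H5 there were 4, these and Mcm6, beside 17.6%. Cdk4, E2f2 and Mcm2 passed in every one of these fits, and without H1 Pcna and Tk1 were lower, beside 17.0% of all genes.

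**Figure D4:**
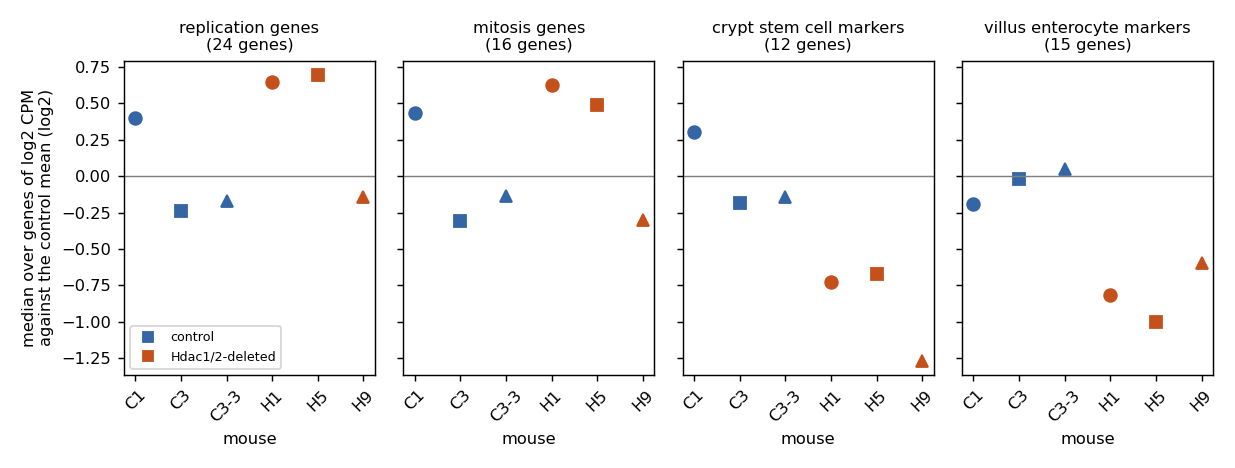
Median over genes of the log2 CPM relative to each gene's control mean (y axis, log2) in each of the 6 mice (x axis), in panels for replication genes, mitosis genes, crypt stem cell markers and villus enterocyte markers. In the first 2 panels C1, H1 and H5 are above 0 and C3, C3-3 and H9 below, whereas in the crypt panel all Hdac1/2-deleted mice are below all control mice.

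In bulk IEC, fewer cells of a type and less RNA per cell cannot be told apart. Of all tested genes, 20.3% were lower and 20.5% higher in Hdac1/2-deleted IEC. Of 12 markers of crypt stem cells, 6 were lower, or 50%, and 1, Msi1, was higher, or 8.33%. Their summed level was 613, 478 and 474 CPM in the control mice and 311, 272 and 187 CPM in H1, H5 and H9, with C1 the highest and H9 the lowest. The most abundant was Olfm4, a marker of crypt base stem cells, at 317, 265 and 237 CPM in the control mice and 121, 98.3 and 54.6 CPM in the Hdac1/2-deleted mice (log2 fold change -1.58, adjusted p = 0.0024). Slc12a2, an ion cotransporter of crypt cells, was at 111, 63.7 and 67 CPM in the control mice and 53.9, 39 and 33.4 CPM in the Hdac1/2-deleted mice (log2 fold change -0.93, adjusted p = 0.019). None of the 40 proliferation genes was lower by edgeR beside these markers. Of 15 markers of villus enterocytes, 8 were lower, or 53.3%, and 1, Alpi, was higher, or 6.67%. The other 6 did not pass. The 15 summed to 90226 to 105288 CPM in control and 37325 to 50945 CPM in Hdac1/2-deleted mice. Much of this difference lay in 2 abundant genes. Mean Apoa4 was 38393 CPM in control and 6283 CPM in Hdac1/2-deleted mice, and mean Apoa1 was 22706 and 13216 CPM.

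Markers of other cell types also differed between mice. The counts below stand beside 20.5% of all tested genes higher and 20.3% lower in Hdac1/2-deleted mice. The 15 markers of T cells and intraepithelial lymphocytes, cells that can themselves divide, summed to 170.3 CPM in C1, 639 in C3 and 546 in C3-3, and to 94.4, 203 and 187 CPM in H1, H5 and H9. C1, the control mouse with the highest proliferation genes, thus had the fewest of these transcripts among the control mice, and 2 of the 15 markers passed the test, both lower in Hdac1/2-deleted mice. Of the 15, 0 had a log2 fold change above 0, beside 49.6% of all tested genes, and the median was -1.25. At an unadjusted p under 0.05 by edgeR, 7 of the 15 were lower, beside 24.8% of all tested genes. The 8 B and plasma cell markers summed to 6.91 to 63.7 CPM in control and 44.5 to 62.8 CPM in Hdac1/2-deleted mice, with C1 the highest control mouse, and Tnfrsf17 was at 0 in at least 1 mouse. In C1 the sum was mostly Jchain, at 59.6 CPM. Of these 8, 5 had enough counts to be tested, and 1, Cd79b, was higher and 0 lower. Cd79b was at 0.71, 1.55 and 1.19 CPM in the control mice and 27.2, 40.7 and 30.3 CPM in the Hdac1/2-deleted mice (log2 fold change 4.84). It made up much of the sum in the Hdac1/2-deleted mice. The median log2 fold change of the 5 was -0.13, and 2 of the 5 were above 0. Of 10 macrophage and dendritic cell markers, 3 were higher, namely Csf1r (log2 fold change 1.75), C1qa (1.18) and C1qb (1.15), and 1, Cd14, was lower (-2.01), with a median of 0.81 over the list and 8 of the 10 above 0. Their sum went the other way, at 75.4 to 86.2 CPM in control and 42.4 to 68.5 CPM in Hdac1/2-deleted mice, and Cd14 alone was at 67.9, 48.5 and 58.2 CPM in the control mice and 13.9, 18.6 and 11 CPM in the Hdac1/2-deleted mice. The 14 stromal and endothelial markers, of which 11 were tested, 1 higher and 3 lower, summed to 17.2 to 49.9 and 21.2 to 32.6 CPM, with Kdr and Lum at 0 in at least 1 mouse. The part of any of these cells in the values above was not tested.

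The same question was put to 147 other genes of these pathways, all of them tested. In Hdac1/2-deleted IEC 14 were higher and 8 lower, or 9.52% and 5.44%, beside 20.5% and 20.3% of all tested genes. The median log2 fold change of the 147 was 0.18. Without C1, 31 were higher and 4 lower, beside 19.6% and 18.6% of all genes in that fit, and with library totals alone 18 were higher and 1 lower. C1 was the highest control mouse for 128 of them and H9 the lowest Hdac1/2-deleted mouse for 117. Of 54 other replication genes, 2 were higher, or 3.70%, and 5 lower, with a median of 0.079. Fen1, the flap nuclease that finishes Okazaki fragments, was at 21.5, 15.8 and 17.3 CPM in the control mice and 34.1, 35.9 and 25.7 CPM in the Hdac1/2-deleted mice (log2 fold change 0.81, adjusted p = 0.0077). Chaf1b, a subunit of the chromatin assembly factor that places histones on new DNA, had a log2 fold change of 1.06 (adjusted p = 0.0095). The 5 lower genes, 9.26% of the 54 beside 20.3% of all tested genes, were Rfc5 and Rfc1 of the clamp loader, with -1.05 (adjusted p = 0.0029) and -0.67 (0.034), Pold2 of DNA polymerase delta, with -0.78 (0.039), and Pole3 and Pole4 of DNA polymerase epsilon, with -0.61 (0.010) and -0.77 (0.023). Rfc5 was at 19.9, 17.7 and 17.6 CPM in the control mice and 10.3, 9.5 and 6.79 CPM in the Hdac1/2-deleted mice. For all 5, which were named because they passed, the groups of mice did not overlap. Of the 54, 3 were higher and 7 lower without overlap, beside 26.7% and 26.6% of all tested genes.

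Of 22 other regulators of the passage from G1 to S phase, 4 were higher and 2 lower, with a median of 0.11. These counts are 18.2% and 9.09%, beside 20.5% and 20.3% of all tested genes. Mybl2, a transcription factor that acts with MuvB on mitosis genes, was at 7.16, 4.63 and 3.97 CPM in the control mice and 20.6, 33 and 14.3 CPM in the Hdac1/2-deleted mice, the largest difference of the 147 (log2 fold change 2.10 ± 0.35, SE, adjusted p = 0.0017). Cks1b, a small subunit of cyclin-dependent kinases, was at 4.89, 3.62 and 4.1 CPM in the control mice and 15.4, 13.8 and 9.69 CPM in the Hdac1/2-deleted mice (log2 fold change 1.62, adjusted p = 0.00084). The groups of mice did not overlap for either gene. Of the 22, 3 were higher and 6 lower without overlap, beside 26.7% and 26.6% of all tested genes. E2f3, the remaining activator of the E2F family, was at 14.8, 20.1 and 16 CPM in the control mice and 36.1, 41 and 38.9 CPM in the Hdac1/2-deleted mice (log2 fold change 1.19, adjusted p = 0.00054), and E2f6, a repressor, had a log2 fold change of 0.82 (adjusted p = 0.045). Among the activators, E2f2 and E2f3 thus rose, while E2f1 had a value of -0.23 that did not pass. The lower genes were Mnat1, of the kinase complex that activates cyclin-dependent kinases (-0.80, adjusted p = 0.043), and Lin37, of the MuvB core (-0.66, adjusted p = 0.0085).

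Of 71 other mitosis genes, 8 were higher and 1 lower, with a median log2 fold change of 0.30. These counts are 11.3% and 1.41%, beside 20.5% and 20.3% of all tested genes. Cenpa, the histone variant of centromeres, was at 15.4, 9.18 and 11.9 CPM in the control mice and 48.5, 42.4 and 44.1 CPM in the Hdac1/2-deleted mice. All Hdac1/2-deleted mice were above all control mice, with H9 between H1 and H5 (log2 fold change 1.89 ± 0.20, SE, adjusted p = 0.00015). Espl1, the separase that opens cohesin at anaphase, had a log2 fold change of 1.08 (adjusted p = 0.022), and Pttg1, the securin that inhibits it, one of -1.0 (adjusted p = 0.023). Cdca3, which triggers mitotic entry through Wee1 degradation, gave 1.05 (adjusted p = 0.0030), the chromokinesin Kif22 0.88 (0.020), and Fzr1, the activator of the anaphase-promoting complex in G1, 0.79 (0.0020).

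**Figure D5:**
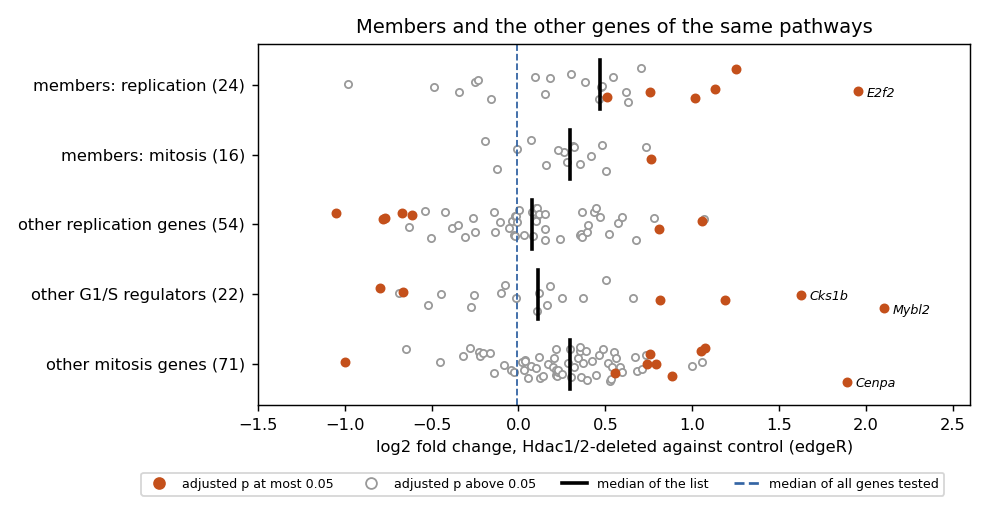
Log2 fold change, Hdac1/2-deleted against control (x axis), of the 40 genes and of the 147 other genes of the same pathways, 1 point per gene and 1 row per list, spread vertically for legibility only. Orange points passed an adjusted p of 0.05, black bars are list medians from 0.079 to 0.47, and the dashed line is the median of all tested genes.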

How the data were processed

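The authors enriched jejunal IEC with EDTA from 3 mice of each group and made directional libraries from poly(A) RNA of samples with an integrity number over 6.5. Per the study's methods, reads were aligned with STAR to GRCm38, whereas the submitters' processing notes list STAR 2.4.0f1, bcl2fastq 1.8.4 and the build mm9. The program that counted the reads, its annotation and its use of strand are not given in the sources used here. The deposited table holds raw read counts for 19616 genes, none with fewer than 10 counts over the 6 samples, and, per sample, the authors' score, which is the count times a factor of that sample, rounded. The scores and the authors' fold changes, mean log2 CPM and DESeq and edgeR p-values in that table were not used.

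The counts were tested in edgeR 4.0.16 (with limma 3.58.1, R 4.3.3). filterByExpr kept 15618 genes. TMM normalization and the robust quasi-likelihood model were applied to all of these, without covariates and at a prior count of 0.125, and Benjamini-Hochberg adjustment ran over them. The standard error is the log2 fold change divided by the square root of F. TMM factors ranged from 0.892 to 1.14. The mice are numbered within their groups and not paired. For a single gene, exact permutation of 3 mice against 3 reaches a p of 0.10 at best. The 40 genes, the lists of other genes and markers, the motifs and the alternatives were chosen with earlier results of these data known, so that no count over a list is independent support. Genes named from the other pathway lists are those with the largest log2 fold changes among genes that passed, up to 5 in each direction. The most abundant markers were named for some marker lists only. Msi1, Alpi, Apoa1, Apoa4, Jchain, Cd79b, C1qa and C1qb, and the markers listed at 0, were named after their values were seen. Gene positions, exon lengths and exon overlaps came from GENCODE release 21 for mouse (GRCm38), and promoter sequences from RefSeq (GRCm38.p6). The steps were tested on simulated data. Alternatives used DESeq2 1.42.0, its size factors, library totals alone, other filters on low counts, no robust estimation, other limits, and each mouse left out in turn. Plots were drawn with matplotlib 3.10.9 in Python 3.11.15.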

Additional observations from a re-analysis of the deposited data

How the results depend on the processing

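The 7 genes that were higher passed under each of the alternatives that kept all mice at the adjusted p limit of 0.05 (DESeq2's test, its size factors, library totals alone, no filter on low counts, at least 10 counts in every sample, edgeR without robust estimation). Leaving out mice moved the counts. With each mouse left out in turn, 3 to 8 replication genes were higher, 0 to 2 lower, 1 to 5 called increased and 0 to 1 called decreased, 0 to 2 mitosis genes were higher and 0 to 1 called increased, and 8 to 31 of the 147 other genes were higher and 3 to 8 lower. The highest of these last counts, 31, came without C1, and the lowest of 3 lower genes without H9. DESeq2 gave 2 mitosis genes higher and 1 replication gene lower, and library totals alone 2 mitosis genes higher and 1 of the other genes lower. A limit of 0.01 on the adjusted p left 1 replication gene called increased, E2f2, and a limit of 1.5-fold called 1 mitosis gene increased, Foxm1. Genes close to 0 changed sign. Over the fits without 1 mouse, log2 fold changes ran from -0.0030 to 0.41 for Mcm4, -0.43 to 0.0026 for Tyms, -0.081 to 0.40 for Rrm1, -0.40 to 0.030 for E2f1, -0.25 to 0.41 for Cdk6, -0.47 to 0.072 for Ccnb2, -0.33 to 0.23 for Top2a, -0.45 to 0.32 for Kif11, -0.097 to 0.34 for Bub1b, -0.026 to 0.43 for Cdc20 and -0.074 to 0.75 for Bub1. With library totals alone they were 0.028 for Cdt1, 0.0014 for Ccnb2, 0.058 for Top2a and 0.18 for Kif11, and Kif11 was also at 0.00075 with DESeq2's size factors, 0.00034 with DESeq2 and 0.0041 with at least 10 counts in every sample. None of these reversed values passed the test. The causes were not tested. No paired analysis was possible because the names of the mice do not pair the groups. The median standard error of the log2 fold change was 0.30 for the 40 genes and 0.25 for all tested genes, and the lowest count of any of the 40 in a mouse was 37, for Ccne2.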
